A study of Homo sapiens with 10 samples.

Results

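The 10 genes of microtubule-binding proteins were followed in cultured human lung cells exposed or adapted to discodermolide, a marine compound that stabilises the microtubule polymer. They comprised 4 genes of proteins that bind along the microtubule (MAP1B, MAP2, MAP4 and MAPT), 4 of proteins that track its growing plus end (MAPRE1, MAPRE2, MAPRE3 and CLIP1), the severing enzyme gene SPAST and the tubulin-sequestering gene STMN1. The 10 members were chosen by name, with earlier results of these data known, so their counts beside all genes are descriptions only. All 10 were measured among the 18279 genes that had a probe set of their own. Each member had 1 such probe set, except STMN1, for which the one with the higher mean of 2 was used.

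The measurements came from 10 Affymetrix arrays of total RNA, 1 array per sample, in 4 groups grown in the same serum-containing medium. A549, a human lung adenocarcinoma line labelled sensitive, was given 0.01% DMSO (n = 4) or 32 nM discodermolide (n = 2), after which the cells are labelled senescent. AD32, known as a discodermolide-resistant derivative of A549 and labelled resistant, was grown in 32 nM discodermolide (n = 3). AD32 4E-BP1 bears the name of a repressor of cap-dependent translation, is labelled sensitive and was given 0.01% DMSO (n = 1). The labels give neither the length of treatment nor how AD32 and AD32 4E-BP1 were made. They call the numbered samples biological replicates without saying how the cultures were kept apart, so the p-values measure the spread between these samples.

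Microtubules grow and shrink mainly at their plus ends. The end-binding proteins EB1, EB2 and EB3 recognise the cap of newly added tubulin there and recruit partners such as CLIP-170. MAP2, MAP4 and tau share a family of C-terminal repeats that bind along the lattice and stabilise it, whereas spastin cuts the lattice and stathmin 1 holds free tubulin dimers in an unpolymerised state. MAP2, MAP1B and tau are best known from neurons, while MAP4 and EB1 are widely expressed in dividing cells.

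Several arrays stood apart from others with the same label. The mean log2 signal of 29 measured genes of G2/M and mitosis was 9.76 to 9.92 on A549 DMSO replicates 2 to 4 and 6.67 on replicate 1. AD32 replicates 1 and 2 read 5.15 and 6.09 while replicate 3 read 9.45. It was 6.48 and 6.74 on the discodermolide arrays, and 9.68 on the AD32 4E-BP1 array. A549 DMSO replicates 3 and 4 were the most alike of all pairs (Pearson r = 0.9973 across probe sets). The AD32 4E-BP1 array was closer to A549 DMSO replicate 2 (r = 0.9955) than to any AD32 array (0.9444 to 0.9828). KRT7, a keratin gene high in AD32 (mean 11.78), read 7.35 on that array and 7.13 in A549 DMSO. EIF4EBP1, the gene of 4E-BP1, read 11.61 on it, above A549 in DMSO (9.47 to 10.23) and AD32 (7.99 to 8.93), as its name would have it. AD32 replicate 3 was itself closer to A549 DMSO replicate 2 (r = 0.9813) than to AD32 replicates 1 and 2 (0.9591 and 0.9649). A549 DMSO replicate 1 was closer to both discodermolide arrays (r = 0.9777 and 0.9764) than to any other A549 DMSO array (0.9561 to 0.9608). The AD32 4E-BP1 array was in DMSO and AD32 in the drug. The part of the drug or of the mitotic genes in these likenesses was not tested. In KRT7 the AD32 4E-BP1 array stood apart from the mean of AD32, and its values below are those of the array so labelled. Of 7 measured epithelial markers, KRT8, KRT18, KRT7 and CDH1 lay above the array median on all 10 arrays. KRT19 and CLDN4 lay above it on 0 arrays, and EPCAM lay below the lower quartile on every array. In AD32 against A549 in DMSO, 2 of the 7 were called higher, beside 3.52% of all genes. Of 9 neuronal markers only SNAP25 (9 of 10 arrays) and RBFOX3 (2 of 10) lay above any array median, and the list mean ran from 5.32 to 5.88. ELAVL4 lay below the lower quartile on all arrays. RBFOX3 was called higher in AD32 than in A549 in DMSO (7.65 against 6.09, adjusted p = 0.0355), the 1 neuronal marker called there, and the part of such markers in the AD32 differences below was not tested. Fibroblast list means ran from 5.16 to 5.84, with DCN and PDGFRA below the lower quartile on all arrays but COL1A1 above the median on all 10 and COL3A1 on 7. COL3A1, the 1 fibroblast marker called, was lower in AD32 than in A549 in DMSO (6.22 against 8.30, adjusted p = 0.00789). The list means were similarly low for leukocytes and endothelium, from 4.55 to 4.87, with PTPRC, PECAM1, VWF and KDR below the lower quartile on all arrays. ITGAM lay above that quartile on 10 arrays, CD14 on 8, CDH5 on 2 and CD3E on 1, and none of these lay above an array median.

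All 10 members lay above the lower quartile of every array, and 7 lay above the median of every array. The exceptions were MAPT, above the median on 2 arrays, and MAP2 and MAPRE3, each above it on 8. STMN1, MAPRE3 and MAP2 varied most, with standard deviations over the 10 arrays larger than those of 98.1%, 97.1% and 95% of all genes, whereas MAP4 (35.5%) varied least. Levels are given as deposited log2 signals, differences as log2 differences with a standard error (SE), and folds as ratios of signal. All tests are two-sided limma tests over all genes with Benjamini-Hochberg adjustment, and a gene is called at an adjusted p under 0.05.

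**Figure D1:**
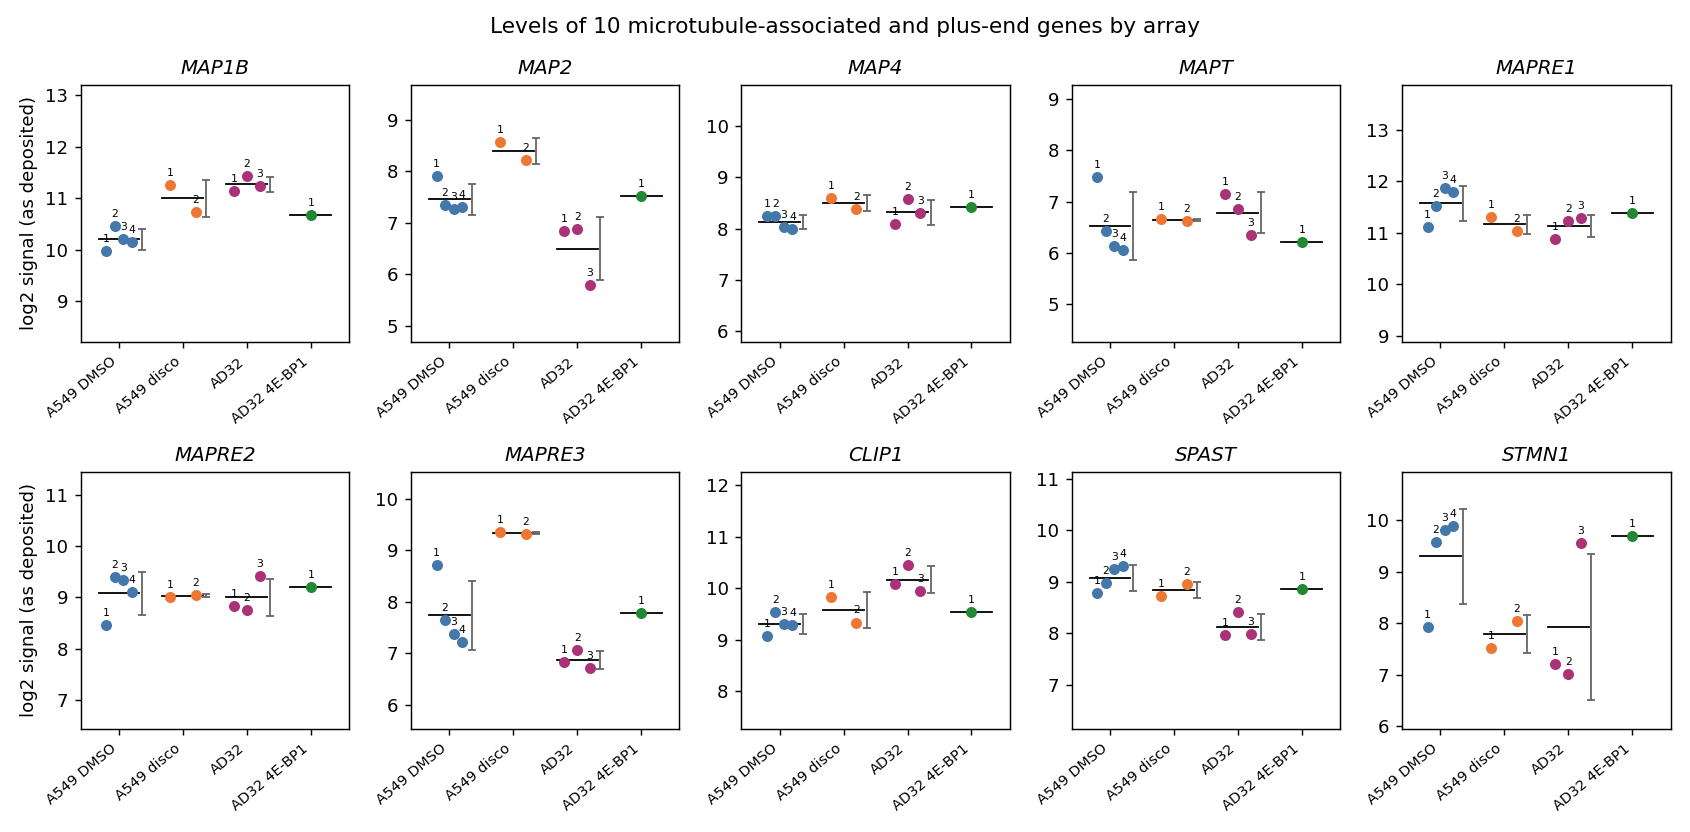
Log2 signal of each member (vertical axis, spanning the same number of log2 units in every panel) on each array, by group (horizontal axis). Points are arrays with their replicate number, black lines are group means and grey bars are 1 SD where a group has over 1 array. MAPRE3 and MAP2 are highest in treated A549 and lowest in AD32, MAP1B and CLIP1 are high in AD32, and SPAST is low there, while STMN1 differs widely among arrays of 1 label.

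AD32 against A549 in DMSO sets a resistant line, grown in the drug, against the sensitive line without it. MAP1B and CLIP1 rose in AD32 and SPAST fell, so 2 of 10 members were called higher (against 3.52% of all genes) and 1 lower (2.19%). Together that is 3 of 10 members, against 5.72% of all genes in either direction. The arrays of the 2 groups did not overlap for 5 of 10 members, beside 15.4% of all genes. The members' median log2 difference was -0.26, against 0.01 over all genes.

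MAP1B encodes a large microtubule-binding protein that is split into heavy and light chains and is prominent in growing axons. Its level was 11.15, 11.43 and 11.24 on AD32 replicates 1 to 3, and 9.98, 10.45, 10.21 and 10.15 on A549 DMSO replicates 1 to 4. Every AD32 array thus lay above every A549 DMSO array. The log2 difference was 1.08 (SE 0.17, adjusted p = 0.00751), or 2.11-fold. The discodermolide arrays read 11.25 and 10.74, also above all DMSO arrays, but that difference of 0.80 (SE 0.19, adjusted p = 0.141) was not called. AD32 and treated A549 overlapped and differed by 0.27 (95% interval -0.18 to 0.73). The AD32 4E-BP1 array, at 10.66, lay between the 2 lines, below all AD32 arrays and above all A549 DMSO arrays.

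CLIP1 encodes CLIP-170, a plus-end tracking protein that links growing ends to organelles and the cell cortex. It read 10.07, 10.46 and 9.95 in AD32 and 9.08, 9.55, 9.31 and 9.29 in A549 in DMSO, again without overlap. The log2 difference was 0.86 (SE 0.18, adjusted p = 0.0285), or 1.81-fold. This call was lost under 6 of 17 alternatives, against 1 of 17 for MAP1B. It ended without AD32 replicate 1 or 2 (adjusted p = 0.0761 and 0.11) or without A549 DMSO replicate 3 or 4 (0.0818 and 0.0867), and with those DMSO arrays averaged (0.0836). Treated A549 read 9.83 and 9.33, overlapping the DMSO arrays (difference 0.28, adjusted p = 0.711) and below AD32 (difference from AD32 0.58, adjusted p = 0.226). At 9.53, AD32 4E-BP1 lay inside the A549 DMSO range.

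MAP1B and CLIP1 were the 2 members whose levels were most alike over the 10 arrays (Pearson r = 0.914, n = 10). The points share their groups and include the nearly identical A549 DMSO pair. Because they moved together, 250 bases before a start of each gene are shown, with GC boxes (GGGCGG or its reverse complement) in capitals. The start is the most upstream of those in the RefSeq promoter table used here (GRCh38.p14), which lists 2 for MAP1B and 1 for CLIP1 and is not complete. The stretch of MAP1B ends where the annotated gene begins, whereas that of CLIP1 lies just inside the annotated gene, and the arrays do not show which start was used. The stretches are chr5:72107225-72107474 on the plus strand for MAP1B and chr12:122422670-122422919 on the minus strand for CLIP1, both printed in the direction of transcription.
MAP1B: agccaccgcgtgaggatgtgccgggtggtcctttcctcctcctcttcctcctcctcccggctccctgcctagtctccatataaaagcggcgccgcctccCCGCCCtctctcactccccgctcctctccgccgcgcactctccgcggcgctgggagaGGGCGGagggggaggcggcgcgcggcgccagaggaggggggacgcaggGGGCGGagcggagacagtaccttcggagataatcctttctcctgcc
CLIP1: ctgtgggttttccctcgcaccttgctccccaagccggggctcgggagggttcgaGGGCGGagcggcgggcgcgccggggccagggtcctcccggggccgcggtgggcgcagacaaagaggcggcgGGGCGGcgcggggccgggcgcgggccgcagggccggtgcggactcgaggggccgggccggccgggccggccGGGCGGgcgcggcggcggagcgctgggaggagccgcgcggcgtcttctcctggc
Each held 3 GC boxes, a motif found on either strand in 42.6% of the 35116 RefSeq promoters of this length. Neither held CCAAT (in 32.0% of promoters) or CACGTG (6.3%) on either strand, and TATAAA (10.7%) occurred in that of MAP1B alone. The GC content was 70.0% for MAP1B and 82.8% for CLIP1, against a median of 58.0%. These matches describe the letters and show no binding.

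SPAST encodes spastin, a hexameric enzyme that cuts microtubules and is known from hereditary spastic paraplegia. Its level was 7.97, 8.41 and 7.99 in AD32 and 8.78, 8.98, 9.25 and 9.32 in A549 in DMSO. No AD32 array reached the lowest DMSO array. SPAST thus fell 1.94-fold (log2 difference -0.96, SE 0.18, adjusted p = 0.0151). The call ended without AD32 replicate 1 (adjusted p = 0.0643), without A549 DMSO replicate 3 or 4 (0.0553 and 0.0536) and with the latter pair averaged (0.0539). Treated A549 (8.73 and 8.96) also lay above all AD32 arrays, though the difference of -0.72 (SE 0.21, adjusted p = 0.112) was not called. AD32 4E-BP1 read 8.86, inside the range of A549 in DMSO.

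The remaining differences of AD32 from A549 in DMSO were not called. MAP2 and MAPRE3 were lower without overlap, by log2 differences of -0.96 (SE 0.28, adjusted p = 0.0907) and -0.88 (SE 0.32, adjusted p = 0.164). MAPRE1 differed by -0.44 (95% interval -0.90 to 0.02), and without A549 DMSO replicate 1 its difference of -0.60 was called (adjusted p = 0.0481). MAP4 differed by 0.19 (interval -0.15 to 0.53), MAPT by 0.26 (-0.51 to 1.02) and MAPRE2 by -0.08 (-0.64 to 0.48), and these intervals leave room for changes in either direction. Array weights, which gave 4215 genes in place of 1045, called MAP2 and MAPRE1 lower (adjusted p = 0.0415 and 0.0184). They also called MAPT higher and STMN1 lower, as given below.

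**Figure D2:**
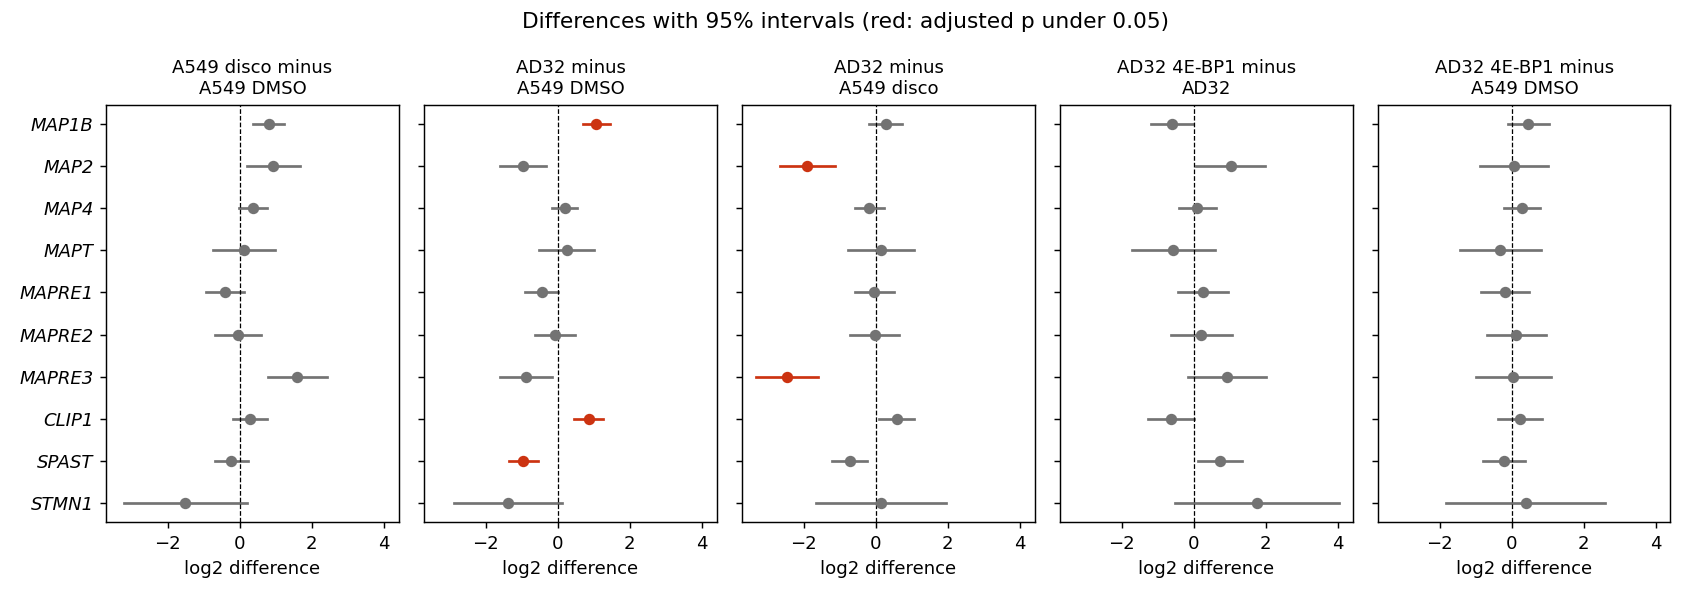
Log2 difference (horizontal axis) of each member (vertical axis) in the 5 comparisons, 1 panel each. Points are limma estimates, lines are unadjusted 95% intervals, and red marks an adjusted p under 0.05, reached by 3 members in the panel of AD32 and vehicle A549, by 2 in the panel of AD32 and treated A549, and by 0 in the other panels.

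Compared in equal drug, AD32 had less MAPRE3 and MAP2 than treated A549. These were the only 2 of 10 members called, both lower, beside 2.46% of all genes called lower, and 0 were called higher (1.28%); in either direction 3.74% of all genes were called. Arrays did not overlap for 4 of 10 members, beside 32.3% of all genes, a share near the background. The members' median log2 difference was -0.03, against 0.01 for all genes.

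MAPRE3 encodes EB3, the end-binding protein most associated with neurons and muscle. It read 9.35 and 9.32 in treated A549, and 6.82, 7.05 and 6.71 in AD32. A549 in DMSO lay between, at 8.71, 7.65, 7.38 and 7.22 on replicates 1 to 4, so neither group touched it. Between AD32 and treated A549 the log2 difference was -2.47 (SE 0.38, adjusted p = 0.00955), with MAPRE3 5.54-fold lower in AD32. That call needed both treated arrays and ended without either (adjusted p = 0.0921 and 0.0954), although the difference stayed at -2.45 and -2.49. In AD32 4E-BP1 it was 7.79, inside the range of A549 in DMSO.

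MAP2 encodes a stabilising protein of neuronal dendrites. Its level was 8.58 and 8.22 in treated A549, 7.90, 7.35, 7.27 and 7.31 in A549 in DMSO, and 6.83, 6.88 and 5.79 in AD32. The 3 groups did not overlap. MAP2 was 3.72-fold lower in AD32 than in treated A549 (log2 difference -1.90, SE 0.34, adjusted p = 0.0174). This call ended without treated replicate 1 or 2 (adjusted p = 0.172 and 0.107) and with only the 2 groups fitted (0.0635). AD32 replicate 3, with the highest G2/M list mean of its group, had the lowest MAP2. The AD32 4E-BP1 array read 7.53, inside the range of A549 in DMSO.

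MAP2 and MAPRE3 followed each other over the arrays (Pearson r = 0.91, n = 10), in the order treated A549, then A549 in DMSO, then AD32. Within A549 in DMSO, replicate 1 was highest for both genes and had the low G2/M list mean of 6.67; the part of the mitotic genes in the result was not tested. Because the pair moved together, 250 bases before a start are shown, chosen and marked in the same way. They span chr2:209579082-209579331 for MAP2, which has 3 starts in the table, and chr2:26970387-26970636 for MAPRE3, which has 2, both on the plus strand of GRCh38.p14. The stretch of MAPRE3 ends where the annotated gene begins, but that of MAP2 lies well inside the annotated gene (chr2:209424047-209734112), so it precedes an internal start.
MAP2: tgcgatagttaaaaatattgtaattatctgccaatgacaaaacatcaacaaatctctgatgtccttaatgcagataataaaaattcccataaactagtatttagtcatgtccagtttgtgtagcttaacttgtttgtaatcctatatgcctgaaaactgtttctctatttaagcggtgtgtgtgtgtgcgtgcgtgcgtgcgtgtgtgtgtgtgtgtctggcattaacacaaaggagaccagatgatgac
MAPRE3: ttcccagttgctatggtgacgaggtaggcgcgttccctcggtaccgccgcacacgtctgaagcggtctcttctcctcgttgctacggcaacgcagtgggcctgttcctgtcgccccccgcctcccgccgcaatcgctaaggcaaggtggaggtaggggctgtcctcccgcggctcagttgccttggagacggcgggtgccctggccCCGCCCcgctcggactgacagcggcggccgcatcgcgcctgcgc
The GC content was 37.6% in the stretch of MAP2 and 69.2% in that of MAPRE3, which are not at like places in their genes. MAPRE3 held 1 GC box and MAP2 held 0. MAP2 held 1 CCAAT and MAPRE3 held 0, and neither held TATAAA or CACGTG.

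**Figure D3:**
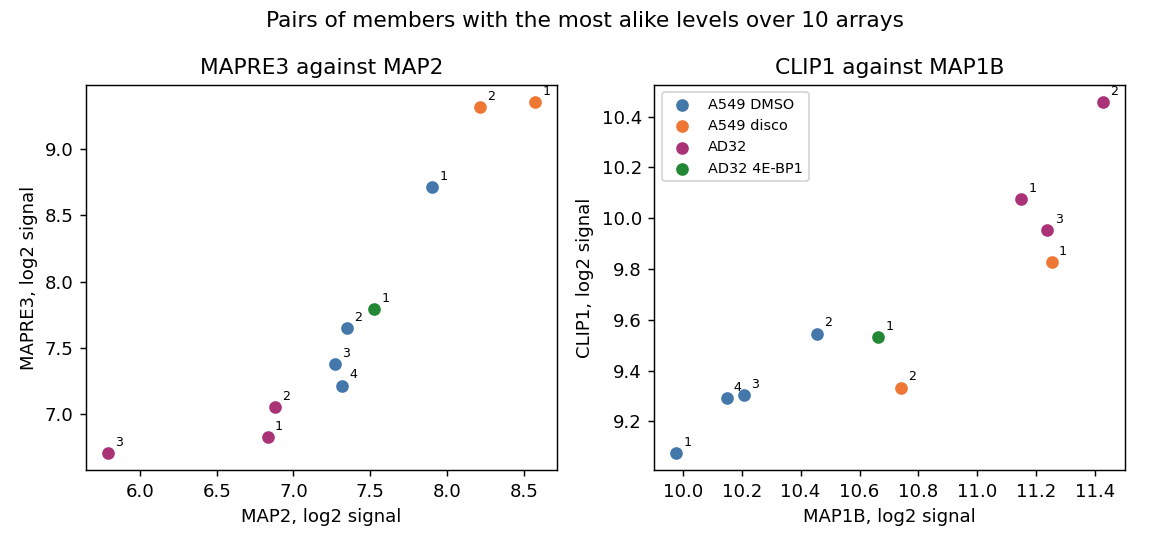
Log2 signal of MAPRE3 against MAP2 (left) and of CLIP1 against MAP1B (right), both axes in log2 units, with 1 point per array, coloured by group and numbered by replicate. The left panel runs from AD32 (MAPRE3 at 6.71 to 7.05) through A549 in DMSO to treated A549 (9.32 and 9.35), and the right panel has the AD32 arrays at the top, with CLIP1 from 9.95 to 10.46.

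The other 8 members were not called between AD32 and treated A549. SPAST and CLIP1 did not overlap, as given above, and array weights called SPAST lower in AD32 (-0.67, adjusted p = 0.0481). MAPRE1 differed by -0.03 (95% interval -0.58 to 0.51), MAPRE2 by -0.03 (-0.70 to 0.64), MAP4 by -0.17 (-0.58 to 0.24), MAPT by 0.14 (-0.77 to 1.06) and STMN1 by 0.14 (-1.66 to 1.94).

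Treated against vehicle A549 gives the response of drug-sensitive cells. No member was called in treated A549 against DMSO, where 0.372% of all genes were called (0.350% higher and 0.0219% lower) and 3 of 10 members had an unadjusted p under 0.05 (2033 of 18279 genes). MAPRE3 lay higher by 1.59 (SE 0.36, adjusted p = 0.12), a 3.02-fold difference, with both treated arrays above all 4 DMSO arrays. Without A549 DMSO replicate 1 it was higher by 1.92 and called (adjusted p = 0.00249). MAP2 (0.94, SE 0.32, adjusted p = 0.321), MAP1B (0.80) and MAP4 (0.36, adjusted p = 0.479) also lay above all DMSO arrays without passing. In all, 4 of 10 members had no overlap, beside 22.9% of all genes. With array weights, which gave 4573 genes in place of 68, 7 members were called, namely MAP1B, MAP2, MAP4 and MAPRE3 higher and MAPRE1, SPAST and STMN1 lower.

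MAP4, the general stabilising protein of dividing cells, moved little anywhere. It read 8.25, 8.25, 8.02 and 7.99 in A549 in DMSO, 8.60 and 8.38 in treated A549, 8.09, 8.57 and 8.30 in AD32, and 8.42 on the AD32 4E-BP1 array. Its group means spanned 0.36 log2 units, and neighbours in their order overlapped throughout. Treated A549 and A549 in DMSO, the ends of that order, did not overlap.

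EB1 and EB2, the other end-binding proteins, are encoded by MAPRE1 and MAPRE2. MAPRE1 lay between the percentiles 97.5 and 99.1 of all genes on its array, at 11.10, 11.52, 11.87 and 11.79 in A549 in DMSO, 11.30 and 11.03 in treated A549, 10.88, 11.22 and 11.28 in AD32, and 11.39 in AD32 4E-BP1. MAPRE2 read 8.47, 9.40, 9.34 and 9.11 in A549 in DMSO, 9.01 and 9.05 in treated A549, 8.84, 8.75 and 9.42 in AD32, and 9.21 in AD32 4E-BP1. The group means of MAPRE1 spanned 0.44 and those of MAPRE2 0.21 log2 units, against 2.47 for MAPRE3. Within A549 in DMSO, replicate 1 was lowest for both MAPRE1 and MAPRE2 and highest for MAPRE3. None of the 3 end-binding genes was called between A549 in DMSO and AD32.

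STMN1 encodes stathmin 1, a tubulin-binding phosphoprotein abundant in proliferating cells. It read 7.92 on A549 DMSO replicate 1 and 9.58, 9.81 and 9.89 on replicates 2 to 4. AD32 replicates 1 and 2 were low (7.20 and 7.00) and replicate 3 was high (9.57), and treated A549 read 7.52 and 8.05. The AD32 4E-BP1 array read 9.69. A549 in DMSO and AD32 therefore each held both low and high arrays, and the low ones were those with a low G2/M list mean. MKI67, which encodes the proliferation antigen Ki-67, read 6.42 on A549 DMSO replicate 1 and 9.88 to 10.63 on the others. TOP2A, a topoisomerase gene of dividing cells, read 5.64, 6.94 and 10.98 on AD32 replicates 1 to 3.

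Neither STMN1 difference from A549 in DMSO was called. In treated A549 it was -1.51 (SE 0.76, adjusted p = 0.504) and in AD32 -1.37 (SE 0.67, adjusted p = 0.305). Without AD32 replicate 3 the latter was -2.20 and called (adjusted p = 0.0295). The part of the mitotic genes in these values was not tested. The second STMN1 probe set lay much lower, between 4.83 and 5.84, and was highest on A549 DMSO replicate 3. With the mean of both probe sets the differences were -0.93 and -0.65.

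MAPT encodes tau, the axonal stabiliser that aggregates in tauopathies. It read 7.48 on A549 DMSO replicate 1 and 6.43, 6.14 and 6.05 on replicates 2 to 4. AD32 read 7.14, 6.85 and 6.35, treated A549 6.66 and 6.62, and AD32 4E-BP1 6.22. Within A549 in DMSO replicate 1 was highest for MAPT and lowest for STMN1, and within AD32 replicate 3 was lowest for MAPT and highest for STMN1. The groups of over 1 array overlapped, and no comparison called MAPT, except that array weights called it higher in AD32 than in A549 in DMSO (adjusted p = 0.0416).

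**Figure D4:**
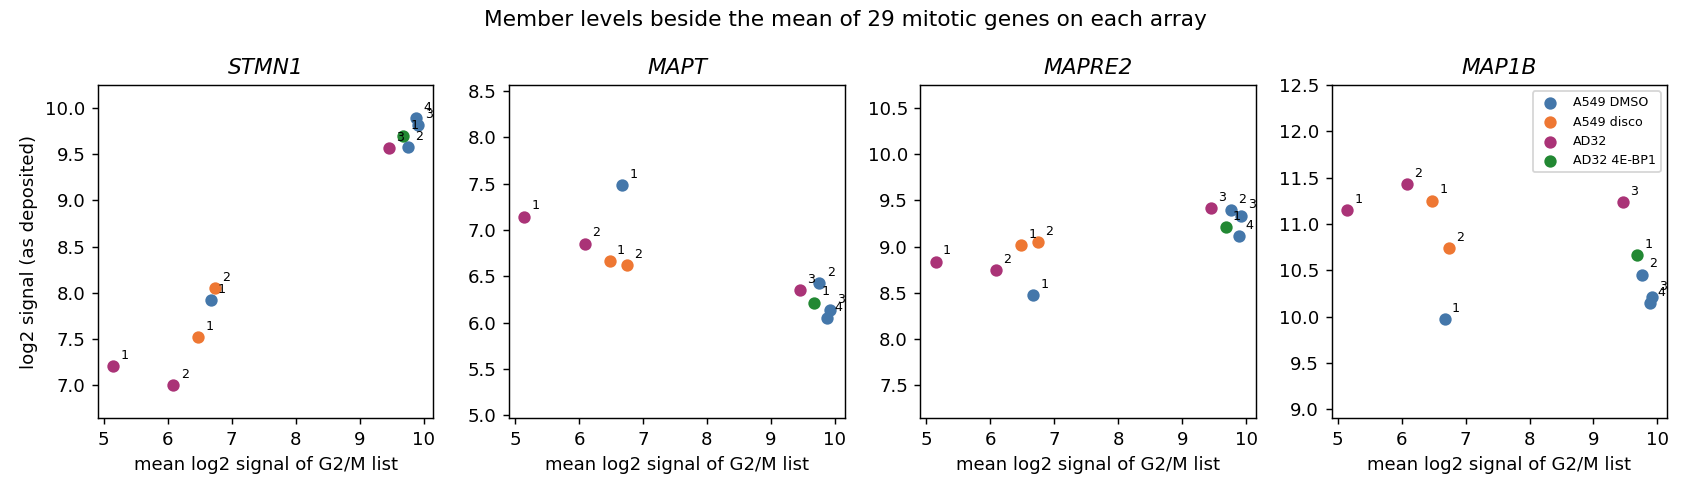
Log2 signal of STMN1, MAPT, MAPRE2 and MAP1B (vertical axes, spans of equal length) against the mean log2 signal of 29 G2/M and mitosis genes on the same array (horizontal axis), with 1 numbered point per array. STMN1, MAPRE2 and MAP1B are lower and MAPT higher on A549 DMSO replicate 1 than on replicates 2 to 4. The 3 AD32 arrays have like MAP1B levels (11.15 to 11.43) at G2/M means of 5.15, 6.09 and 9.45.

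The AD32 4E-BP1 array was set against AD32 and against A549 in DMSO. Its value lay inside the range of the 4 A549 DMSO arrays for 8 of 10 members, the exceptions being MAP1B and MAP4, just above it. It lay inside the AD32 range for 2, MAP4 and MAPRE2. Of all genes, 31.0% fell outside the A549 DMSO range and 51.6% outside that of AD32. No member was called against AD32, where 0.919% of all genes were called and 4 of 10 members (1730 of 18279 genes) had an unadjusted p under 0.05. The nearest to a call was SPAST, higher by 0.74 (SE 0.27, adjusted p = 0.388), followed by MAP2 at 1.03 (SE 0.43, adjusted p = 0.494). MAP1B and CLIP1 lay lower by -0.61 and -0.63 (adjusted p = 0.502 and 0.526). Against A549 in DMSO 0 members and 0 genes of all passed in limma (0%), with 0 members and 208 genes at an unadjusted p under 0.05. With array weights 3 genes passed, none of them a member. A lone array gives no spread of its own, and its error is borrowed from the replicated groups.

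Other genes of microtubule proteins were grouped by role. Of 23 other plus-end genes, 1 was called higher and 2 lower in AD32 against A549 in DMSO, with a median log2 difference of -0.12. Of all genes, 3.52% were called higher there and 2.19% lower. All 3 called plus-end genes were neuron navigators, whose products bind microtubule plus ends. NAV3 rose 3.37-fold (log2 difference 1.75, SE 0.27, adjusted p = 0.00715), with 8.45, 8.39 and 8.49 in AD32 against 5.87 to 7.10 in A549 in DMSO. NAV1 fell by 1.29 (SE 0.23, adjusted p = 0.0127), from 7.37 to 8.22 in A549 in DMSO down to 6.28, 6.47 and 6.99, and was not called without AD32 replicate 1 or 2 (adjusted p = 0.0567 and 0.0578). NAV2 fell by 0.91 (SE 0.21, adjusted p = 0.0389), a call lost under 9 of 17 alternatives (adjusted p up to 0.15, without AD32 replicate 2). NAV2 was also 2.75-fold lower in AD32 than in treated A549 (adjusted p = 0.0158), a call lost without either treated array (0.114 and 0.153) or without AD32 replicate 1 or 2 (0.0513 and 0.053). It was the 1 call of the list in that comparison, where 3.74% of all genes were called in either direction. NAV1 stood at -1.15 and NAV3 at 1.34 (adjusted p = 0.0577 and 0.0611). Without A549 DMSO replicate 1 both of these were called (adjusted p = 0.0178 and 0.00217), and NAV1 also without AD32 replicate 3 (0.021).

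Severing, depolymerising and sequestering genes other than SPAST and STMN1 gave 2 called of 12 in AD32 against A549 in DMSO, both lower (list median -0.33). These were KATNAL1 and KATNAL2, which encode katanin-like relatives of the severing ATPase. In that comparison 2.19% of all genes were called lower and 5.72% in either direction. KATNAL1 fell 2.41-fold (log2 difference -1.27, SE 0.20, adjusted p = 0.00823), with 5.98, 6.89 and 6.59 in AD32 against 7.56 to 7.85. It was also 2.91-fold lower than in treated A549 (adjusted p = 0.0105), a call lost without either treated array (0.11 and 0.0954) or with only the 2 groups fitted (0.0573). KATNAL2 fell (log2 difference -0.94, SE 0.18, adjusted p = 0.0163) to levels of 4.99 to 5.50 in AD32. These were close to the lower quartile of all probe sets on the arrays (4.77 to 4.94), at percentiles 23 to 28.8 among genes. KATNAL2 was not called without AD32 replicate 2 (adjusted p = 0.0621) or A549 DMSO replicate 3 (0.0582), or with DMSO replicates 3 and 4 averaged (0.0515).

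The list of kinases that act on these proteins held 10 genes, counting CDK5R1, the gene of a CDK5 activator. Of these, 3 were called higher in AD32 against A549 in DMSO and 0 lower (list median 0.28). Of all genes, 3.52% were called higher in that comparison and 2.19% lower. MARK1, whose product phosphorylates tau and MAP2 and releases them from microtubules, rose (log2 difference 1.98, SE 0.28, adjusted p = 0.00456). It read 6.44, 7.64 and 6.43 in AD32 and 4.64 to 5.03 in A549 in DMSO. Its levels in A549 lay near the lower quartile of all probe sets on the arrays (4.77 to 4.94). Among the genes of each A549 array it stood at percentiles 18.3 to 24.6, below their lower quartile. No background estimate comes with the values, so no fold is given. In AD32 it was also higher than in treated A549 (log2 difference 2.17, adjusted p = 0.00922), not called without either treated array (0.0892 and 0.0954) or with only the 2 groups fitted (0.0549). On the AD32 4E-BP1 array it was 4.43, a log2 difference of -2.40 from AD32 (SE 0.42, adjusted p = 0.0378) that 8 of 15 alternatives did not call (adjusted p up to 0.486). GSK3B rose 1.59-fold and MARK3 1.81-fold (adjusted p = 0.0188 and 0.0387), and these calls were lost under 7 and 11 of 17 alternatives. Both ended without AD32 replicate 1 or 2 and without A549 DMSO replicate 3 or 4 (adjusted p from 0.0661 to 0.147).

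Of 25 lattice-binding genes other than the members, 0 were called by limma in AD32 against A549 in DMSO, where 5.72% of all genes were. The list median there was -0.03. DCLK2, a doublecortin-like kinase gene, was the only one called against treated A549 (2.00-fold lower, adjusted p = 0.0285), beside 3.74% of all genes. That call was lost under 9 of 17 alternatives. In treated A549 against DMSO, no gene of these 4 lists was called, beside 0.372% of all genes. Under the alternatives only the list genes named here were followed, in every comparison, so other genes of the lists may have been called. Among the named genes, GSK3B was called higher in treated A549 without A549 DMSO replicate 1 (0.86, adjusted p = 0.0221). Array weights, which called 4573 genes of all, called GSK3B, NAV2 and DCLK2 among them (adjusted p = 0.000347, 0.00404 and 0.00801). For the AD32 4E-BP1 array against AD32, MARK1 was the 1 gene called. Without AD32 replicate 3, NAV1, NAV2 and KATNAL2 were called higher (1.83, 1.71 and 1.35, adjusted p = 0.0211, 0.0328 and 0.0442) and MARK3 lower (-1.33, adjusted p = 0.0118). Without A549 DMSO replicate 1, NAV1 and NAV2 were called higher (adjusted p = 0.0264 and 0.0251) and NAV3 lower (0.0493). Array weights called those 5 genes and also KATNAL1 and DCLK2. No gene of the lists was called for that array against A549 in DMSO.

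The genes most like each member over the 10 arrays, by Pearson r of log2 signal, are given as a description, since all points share groups. For MAP1B they were ZNF275, SPG11 and TRIM26 (r = 0.972, 0.97 and 0.969) and for CLIP1 FBXL18, EPG5 and ZFYVE26 (0.975, 0.973 and 0.973). SPAST was nearest to ALX1, PHF20 and STK17B (0.972, 0.967 and 0.967). MAPRE3 was nearest to MANBA, GPR137B and CRYAB (0.98, 0.977 and 0.976), and MAP2 to REEP2, APOL6 and FBXL7 (0.975, 0.968 and 0.961). For STMN1 they were CDCA3, ASF1B and SGO2 (0.994, 0.993 and 0.993), genes of cell division and chromatin assembly. MAPT was nearest to M1AP, PLCD1 and DUSP2 (0.981, 0.979 and 0.972), MAPRE1 to POMK, CLPB and LIN28B (0.977, 0.973 and 0.972), MAPRE2 to OSGEP, DAXX and PRP4K (0.966, 0.963 and 0.961) and MAP4 to KIAA1217, RRBP1 and AFF4 (0.979, 0.962 and 0.93).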

How the data were processed

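Total RNA of 10 samples was measured on 10 Affymetrix arrays. The authors deposited log2 probe set values (Expression Console of Affymetrix, per the submitters' processing notes). The log2 scale was judged from the range of values. The version, the summarisation and the normalization were not given in the sources used here. Array medians lay between 6.50 and 6.63. No detection call or background estimate comes with the values, which limits what low signals show. Precision is limited by the array number. Gene names were those of the platform's annotation table (1 gene for 19262 of 24308, several for 1720, none for 3326), with symbols updated by gene ID, and a gene with several probe sets was given by that of highest mean.

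Groups were taken from the sample descriptions. limma 3.58.1 (R 4.3.3; lmFit, eBayes) was fitted to 18279 genes over all 10 arrays with 6 residual degrees of freedom, and was tested on simulated data. Members and lists were chosen with earlier results of these data known. Named genes were the 10 members, up to 3 called genes per list and comparison, the 3 genes most like each member, and MKI67 and TOP2A; KRT7, EIF4EBP1 and other markers were cited after their values were seen. Alternatives tried were centring on array medians, quantile normalization of the deposited values, and leaving out the dimmest 33.3% of genes. Others were averaging the probe sets of each gene, fitting the compared groups alone, and array weights. In further ones A549 DMSO replicates 3 and 4 were averaged, the replicate number was taken as a block, and each replicate was left out in turn. Promoter sequences came from RefSeq (GRCh38.p14), which held starts for 9 members, not MAPT.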

Additional observations from a re-analysis of the deposited data

Results flagged for a closer look

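MAP2 and STMN1 were each far from the rest on A549 DMSO replicate 1. MAP2 read 7.90 there, with the nearest other DMSO array at 7.35 (gap 0.877 of the group's range), and STMN1 read 7.92, with the nearest at 9.58 (gap 0.842). Both gaps exceed Dixon's 95% critical value for 4 samples. The test was run for 10 members, and chance flags about 1 in 20 such groups. The G2/M list mean on that array was 6.67, against 9.76 to 9.92 on the other DMSO arrays, and its part in either value was not tested.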

How the results depend on the processing

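Of 830 alternative values for the 10 members, 765 kept direction and side of the threshold, 16 lost a call, 15 gained one and 34 uncalled differences turned sign; no called difference did. Members called in treated A549 against DMSO, AD32 against DMSO, AD32 against treated A549, and AD32 4E-BP1 against AD32 and against DMSO ranged with 1 replicate left out over 0 to 1, 1 to 4, 0 to 2, 0 to 0 and 0 to 0, and all genes over 8 to 643, 512 to 2164, 132 to 1215, 99 to 656 and 0 to 0. Array weights gave 7, 7 and 3 members in the first 3 comparisons and 4573 (2707 higher, 1866 lower), 4215 (2037 higher, 2178 lower), 1869, 1282 and 3 genes in the 5. Removing the lowest-signal genes gave 36 genes for treated A549 against DMSO and 107 for AD32 4E-BP1 against AD32. Fitting the compared groups alone gave 106, 353 and 13 genes for treated A549 against DMSO, AD32 against treated A549 and AD32 4E-BP1 against AD32, and 1 member (MAPRE3) for AD32 against treated A549. Averaging A549 DMSO replicates 3 and 4 gave 15, 525 and 99 genes for treated A549 and AD32 against DMSO and AD32 4E-BP1 against AD32, and 1 member (MAP1B) for AD32 against DMSO. Why these counts moved was not tested.

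Same-numbered deviations of AD32 and A549 DMSO from their group means correlated at 0.677, -0.264 and 0.411. These values cannot settle whether the replicate numbers pair the samples, since arrays within a group also differed in G2/M list mean. With the replicate number as a block, on 9 arrays, 4 genes were called for treated A549 against DMSO and 650 for AD32 against DMSO, with 1 member (SPAST); MAP1B and CLIP1 then had adjusted p = 0.0513 and 0.0989 in limma. AD32 replicate 1 correlated best with the A549 DMSO array of its own number, and replicates 2 and 3 did not. The block could not be fitted in the 2 comparisons of AD32 4E-BP1, for which the labels give no number. Probe signal over background is not known here, which limits what the low signals show.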
